A study of Mus musculus with 21 samples.

Results

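Glutathione S-transferases join glutathione to electrophilic compounds and lipid peroxidation products. This section follows 9 of them in the mouse hippocampus: Gsta4 (alpha class), Gstm1, Gstm5 and Gstm7 (mu class), Gstp1 (pi class), Gstt1 and Gstt3 (theta class), Gsto1 (omega class) and Gstz1 (zeta class). They are 9 of the 24411 genes in each deposited table and were taken by symbol. All 9 of 9 passed the filter on low values (a mean of at least 10 normalized counts) in both experiments. The set was chosen by its measured differences between the groups of both experiments, which were already known when it was proposed, so those differences describe the genes and carry no test here.

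The soluble enzymes of this family act as dimers, and conjugates leave the cell through transporters of the ABCC type before being trimmed to mercapturates. Several members are classical targets of the transcription factor NRF2, which binds antioxidant response elements. In brain, mu class enzymes are known from astrocytes, and GSTP1 is known from oligodendrocytes.

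RNA was taken from the hippocampus of 1 hemisphere of perfused, wild-type male mice. In the transfer experiment, B6.SJL-Ptprca Pepcb/BoyJ recipients, 4 months old, had their resident CD8+ T cells depleted with CD8a antibody injections on days -11 and -7. They were then injected by tail vein, with 300000 and later 3000000 cells, with CD8+ T cells of blood and spleen from C57BL/6J donors. The donors were 22 to 28 months old for the aged T group (n = 5) and 3 to 4 months old for the young T group (n = 6), and both groups carry the earlier antibody treatment. The depletion experiment used mice of 22 to 24 months, injected every 4 days with the CD8a antibody (n = 5) or with a rat antibody of isotype IgG2b as control (n = 5). Systemic antibody treatment is not restricted to the brain. The first experiment asks what aged T cells do to a young hippocampus, the second what T cell removal does to an aged one.

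Libraries held 9957822 to 15055422 reads. Values below are the authors' normalized counts (reads divided by 1 size factor per library), and differences are log2 differences of the treated group (aged T, or CD8a antibody) from its control (young T, or IgG2b), from limma on log2(normalized count + 1). All 13 of 13 hippocampal neuron markers passed the filter in both experiments. T cell genes were at or near 0: summed over each group, Cd8a had 0 reads (aged T) and 1 read (young T) after transfer, and 14 with the CD8a antibody against 10 with IgG2b. CD8a antibody replicate 5 stood apart from the other depletion libraries, with a first principal component score of 57.3 against -28.2 to -9.97 in the other 4 antibody libraries and -6.64 to 6.90 in IgG2b. In bulk tissue, fewer cells of a type and less RNA per cell cannot be told apart.

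Compared per kilobase of transcript, the genes covered a wide range of levels, with much the same order in all groups. In IgG2b libraries Gstp1 was highest at 2248 ± 250.1 normalized counts per kb (SD, n = 5), followed by Gstm5 at 2036 ± 128 and Gstm1 at 1745 ± 153. The gap between Gstp1 and Gstm5 was within the sum of their SDs, and the gap between Gstm5 and Gstm1 was not. Gsta4 came next at 735 ± 66.7 per kb, then Gsto1 at 296 ± 31.0, Gstm7 at 207 ± 23.2 and Gstz1 at 203 ± 14.7, with the last 2 indistinguishable by their spread. The theta genes were lowest, Gstt1 at 83.2 ± 16.6 and Gstt3 at 17.1 ± 3.21 per kb. In young T libraries the top 3 were Gstm5 (2047 ± 233 per kb), Gstp1 (1924 ± 169.7) and Gstm1 (1777 ± 196), whose neighbouring gaps were all within the sum of SDs. From Gsta4 downward the order of means was the same in all 4 groups.

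**Figure D1:**
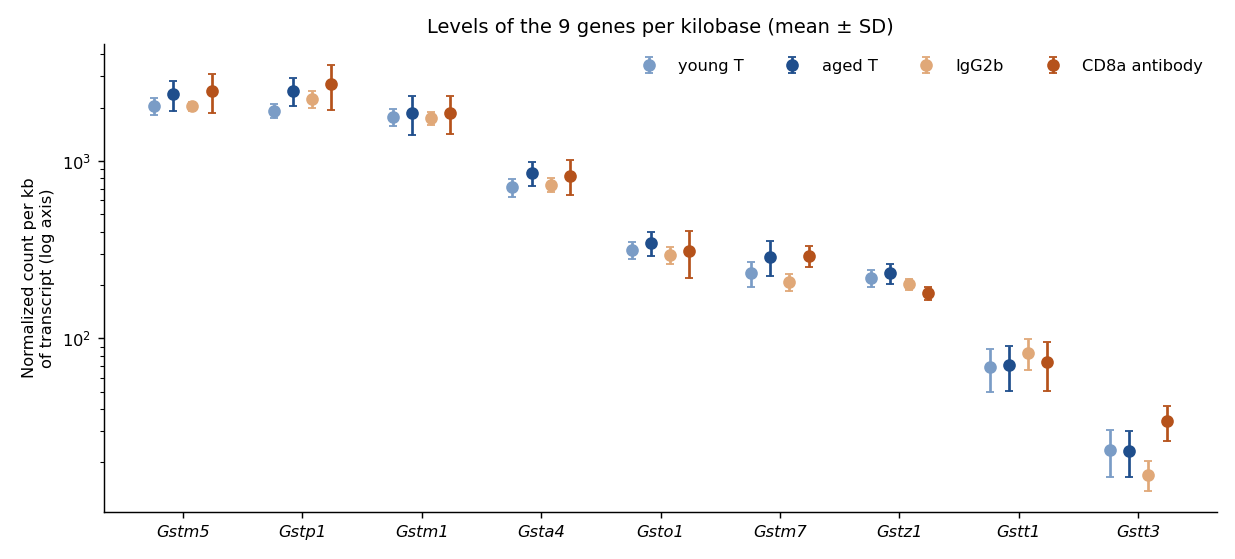
Mean normalized count per kilobase of transcript (log axis) with SD for each gene in young T (n = 6), aged T (n = 5), IgG2b (n = 5) and CD8a antibody (n = 5) libraries. Gstm5, Gstp1 and Gstm1 lie near the top in every group and Gstt3 is lowest in every group, with its highest mean, 34.0, in the CD8a antibody group.

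The theta genes Gstt3 and Gstt1 encode enzymes that act on small halogenated molecules and other electrophiles. They are neighbours on chromosome 10 in GENCODE M21 of mm10 (GRCm38), Gstt3 at chr10:75774115-75781414 and Gstt1 at chr10:75783813-75798584, both on the minus strand within 24.5 kb. Their transcripts align with 76.8% identity over 719 columns, with no shared stretch of 50 bases. Of the 50-base windows of Gstt3, 26.0% also occur in Gm20441, an overlapping gene on the same strand. Gm20441 is not among the measured genes, so reads from it could sit in the Gstt3 values. That share was not tested.

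With the CD8a antibody Gstt3 measured 74.3, 79.1, 46.3, 69.3 and 51.0 normalized counts in replicates 1 to 5, against 28.5, 40.0, 30.4, 25.1 and 36.5 with IgG2b. Every antibody library lay above every IgG2b library. The means were 64.0 ± 14.5 (SD, n = 5) and 32.1 ± 6.03 (SD, n = 5), a ratio of 1.99 and a log2 difference of 0.96 (SE 0.22). The values rest on 30 to 71 reads per library. Between T cell groups Gstt3 was level, at 57.7, 38.3, 56.3, 36.5 and 29.9 in aged T recipients. Young T recipients ranged from 31.0 to 69.6 with a median of 41.2, so the groups overlapped and the difference was -0.02 (SE 0.24).

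Gstt1, its neighbour, measured 56.3, 94.7, 51.4, 72.6 and 105 with the antibody and 110, 92.0, 83.4, 62.9 and 82.7 with IgG2b, overlapping widely, with a log2 difference of -0.21 (SE 0.22) that was -0.34 without antibody replicate 5 and -0.09 without antibody replicate 3. For the same gene aged T libraries were at 84.2, 74.8, 97.9, 41.6 and 67.9, and young T libraries ran from 49.4 through a median of 66.8 to 105, a difference of 0.03 (SE 0.23). Of the other genes of the locus, Gstt2 in the depletion experiment was at 15.5 ± 3.17 against 10.8 ± 4.80 (0.56, SE 0.36). Its groups overlapped, and its values rest on 5 to 21 reads per library. Ddt, Mif, Smarcb1 and Cabin1 differed by 0.20, -0.06, 0.02 and -0.10 in that experiment. Between T cell groups Mif was at 836 to 1100 in aged T against 714 to 865 in young T recipients. Cabin1 was at 681 to 927 against 844 to 1007. Of the 7 genes of the locus that passed the filter there, limma had 1 higher and 1 lower at an unadjusted p under 0.05. Gstt4 was listed at 0 in all libraries. Whether both theta genes differed from each other in response was not tested.

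The sequences before the start sites of these genes are shown for Gstt3 and its neighbour Gstt1, and for Gstm7 and Gstm5, which among the 3 mu genes followed here had the highest differences in the depletion experiment. They are RefSeq promoter windows of GRCm38.p6, trimmed to the bases before the start, 5′ to 3′ on the gene's strand. For Gstm5 the sequence is cut earlier, where the GENCODE gene begins, and its marked match starts at position -42 from the RefSeq start. Capitals mark a match to the antioxidant response element core TGACNNNGC or to the core of the interferon-stimulated response element (a pair of GAAA stretches with any 2 bases between them), on either strand.
Gstt3, chr10:75781415-75781664, minus strand: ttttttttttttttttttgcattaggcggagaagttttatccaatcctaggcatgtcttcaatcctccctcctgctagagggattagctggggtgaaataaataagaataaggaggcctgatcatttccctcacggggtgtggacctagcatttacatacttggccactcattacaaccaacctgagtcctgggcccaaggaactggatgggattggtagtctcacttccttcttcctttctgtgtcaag
Gstt1, chr10:75797732-75797981, minus strand, in an intron of the longer GENCODE model: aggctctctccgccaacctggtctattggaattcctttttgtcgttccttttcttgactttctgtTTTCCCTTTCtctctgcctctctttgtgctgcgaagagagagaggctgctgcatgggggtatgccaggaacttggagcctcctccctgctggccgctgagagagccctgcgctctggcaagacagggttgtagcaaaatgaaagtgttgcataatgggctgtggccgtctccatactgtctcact
Gstm7, chr3:107931818-107932067, minus strand: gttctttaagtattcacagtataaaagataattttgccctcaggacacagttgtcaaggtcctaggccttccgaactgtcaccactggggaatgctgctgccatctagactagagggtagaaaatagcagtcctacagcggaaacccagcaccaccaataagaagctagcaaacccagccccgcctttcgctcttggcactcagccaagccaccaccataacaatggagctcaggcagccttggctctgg
Gstm5, chr3:107895604-107895820, plus strand: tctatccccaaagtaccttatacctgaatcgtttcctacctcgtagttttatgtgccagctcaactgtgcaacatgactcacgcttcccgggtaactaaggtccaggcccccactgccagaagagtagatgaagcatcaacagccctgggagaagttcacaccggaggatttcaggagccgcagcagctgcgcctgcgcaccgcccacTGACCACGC

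The set of RefSeq promoter windows used here held entries for 8 of the 9 genes, 12 windows in all, and none for Gsta4. The antioxidant core was found in 10.2% of all 32851 RefSeq windows of 250 bases and in 2 of these 8 genes: Gstm5, and a second Gstm7 window, where the match lies in the first exon of a GENCODE transcript that starts farther upstream. The interferon core was found in 2.98% of windows and here in Gstt1, on the minus strand of its window. The xenobiotic response element core GCGTG, in 28.2% of windows, was found for Gstm1, Gstm5 and Gstp1, where in Gstm5 it overlaps the antioxidant match. Gstt3's windows held none of these 3 cores.

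The mu genes Gstm1, Gstm5 and Gstm7 lie in 122 kb of chromosome 3, where Gstm6, Gstm3 and Gstm2 stand between Gstm7 and Gstm1. Gstm5 is at chr3:107895821-107898686 on the plus strand, Gstm7 at chr3:107926334-107931817 and Gstm1 at chr3:108012255-108017973 on the minus strand. Gstm1 and Gstm7 transcripts are 83.3% identical over 672 columns, Gstm5 and Gstm7 75.2% over 573 and Gstm1 and Gstm5 73.0% over 666. Gstm5 and Gstm7 share no 50-base window with another gene, whereas Gstm1 shares 23.1% of its windows, most with the pseudogene Gstm2-ps1, so its values are less certain. An antisense gene, 4933431E20Rik, overlaps Gstm5, and whether the strand was used in counting is not given in the sources.

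Gstm7 measured 424, 322.0, 395, 402 and 470.4 with the CD8a antibody in replicates 1 to 5 and 245, 321.5, 267, 280.0 and 313 with IgG2b. The groups did not overlap, though antibody replicate 2 lay only just above IgG2b replicate 2. The means were 403 ± 53.9 and 285 ± 32.0 (SD, n = 5 each) and differed by 0.49 (SE 0.13). After transfer Gstm7 measured 325, 495, 319.7, 361 and 490.1 in aged T recipients, against 265 to 409 with a median of 317 in young T recipients. Replicates 2 and 5 stood above all young T libraries and the other 3 did not, and the difference was 0.30 (SE 0.15).

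Gstm5 measured 1954, 2742, 1849, 2023 and 3138 with the antibody and 1770.5, 2010.1, 1982, 1818 and 2037 with IgG2b. Replicates 2 and 5 were high and the other 3 lay within the IgG2b range, and the mean difference was 0.25 (SE 0.14), or 0.14 without replicate 5. Between T cell groups Gstm5 differed by 0.20 (SE 0.12), or 0.13 without aged T replicate 5, with aged T replicates 3 and 5 above all young T libraries (2662 and 2705 against 1677 to 2252).

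Gstm1 measured 2096, 3459.7, 2003, 2185 and 2344 with the antibody, against 1941 to 2454 with IgG2b, and only replicate 2 lay above the IgG2b range. That library also had the highest astrocyte marker sum of the depletion experiment, 119910.4 normalized counts over 14 markers against 51626 to 75948 in the other antibody libraries and 66689 to 76568 with IgG2b. After transfer Gstm1 was highest in aged T replicate 3 (3293) and young T replicate 3 (2750.3), which also had the highest astrocyte sums of their groups (127859 and 121696). With IgG2b it was the other way round, as replicate 1 had the highest astrocyte sum (76568) and the lowest Gstm1 (1941). CD8a antibody replicate 5 had the lowest astrocyte sum of its group (51626), but its Gstm1 (2344) was below only that of replicate 2. The part of astrocyte content in these values was not tested. The differences were 0.04 (SE 0.14) between T cell groups and 0.08 (SE 0.14) after antibody, and they changed sign without aged T replicate 3 (-0.08) and without antibody replicate 2 (-0.06).

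Gstp1, a highly expressed cytosolic transferase, lies at chr19:4035407-4037985 on the minus strand, and Gsto1, whose enzyme has thioltransferase and dehydroascorbate reductase activity, at chr19:47854970-47864790 on the plus strand. Gstp1 shares 62.3% of its 50-base windows with Gstp2, so reads of those stretches could be assigned to either and its values, too, are less certain. Gstp1 had the largest difference of the 9 between T cell groups. It measured 1768, 2210.3, 1949.6, 1692 and 2589.85 in aged T recipients, and 1338 to 1723 with a median of 1604 in young T recipients. Of the 5 aged T libraries, 4 lay above all young T libraries and replicate 4 did not. The means were 2042 ± 365 (SD, n = 5) and 1579.98 ± 139 (SD, n = 6), a log2 difference of 0.36 (SE 0.11). With the antibody Gstp1 was at 2085, 1732, 1899, 2070.2 and 3314, against 1542 to 1998 with IgG2b. The difference of 0.23 (SE 0.15) fell to 0.08 without replicate 5.

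Gsto1 measured 331, 435, 370.3, 414 and 498 in aged T recipients, overlapping with the 317 to 418 of young T recipients, with a difference of 0.12 (SE 0.11). That difference was 0.05 without aged T replicate 5, 0.19 without aged T replicate 1 and -0.02 with the trend on transcript length subtracted. Its values with the antibody ranged from 244 in replicate 2 to 539.99 in replicate 5, around a median of 355, and IgG2b values from 290.0 to 391, a difference of 0.03 (SE 0.17) that was -0.12 without replicate 5.

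Gsta4, whose enzyme prefers 4-hydroxynonenal and other lipid peroxidation products, lies at chr9:78182774-78209349 on the plus strand. It measured 959, 666, 849.9, 751 and 944 in aged T recipients, and the young T libraries had a lowest value of 626, a median of 663 and a highest of 799.7. Aged T replicates 1, 3 and 5 lay above all young T libraries, and the difference was 0.25 (SE 0.11). With the antibody it was at 717, 705, 756, 734 and 1131, against 658 to 806 with IgG2b, so replicate 5 alone left the IgG2b range. The difference of 0.15 (SE 0.13) was 0.03 without it.

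Gstz1, which isomerises maleylacetoacetate in tyrosine breakdown, lies at chr12:87147165-87164723 on the plus strand. It measured 321, 292, 296, 258 and 321.4 with the antibody and 359.97, 329.9, 358, 329 and 301 with IgG2b, lower on average by -0.17 (SE 0.11), with overlap. Between T cell groups it was at 385 ± 48.6 against 362 ± 39.2, a difference of 0.09 (SE 0.11) that was 0.03 without aged T replicate 3 and 0.15 without aged T replicate 4.

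**Figure D2:**
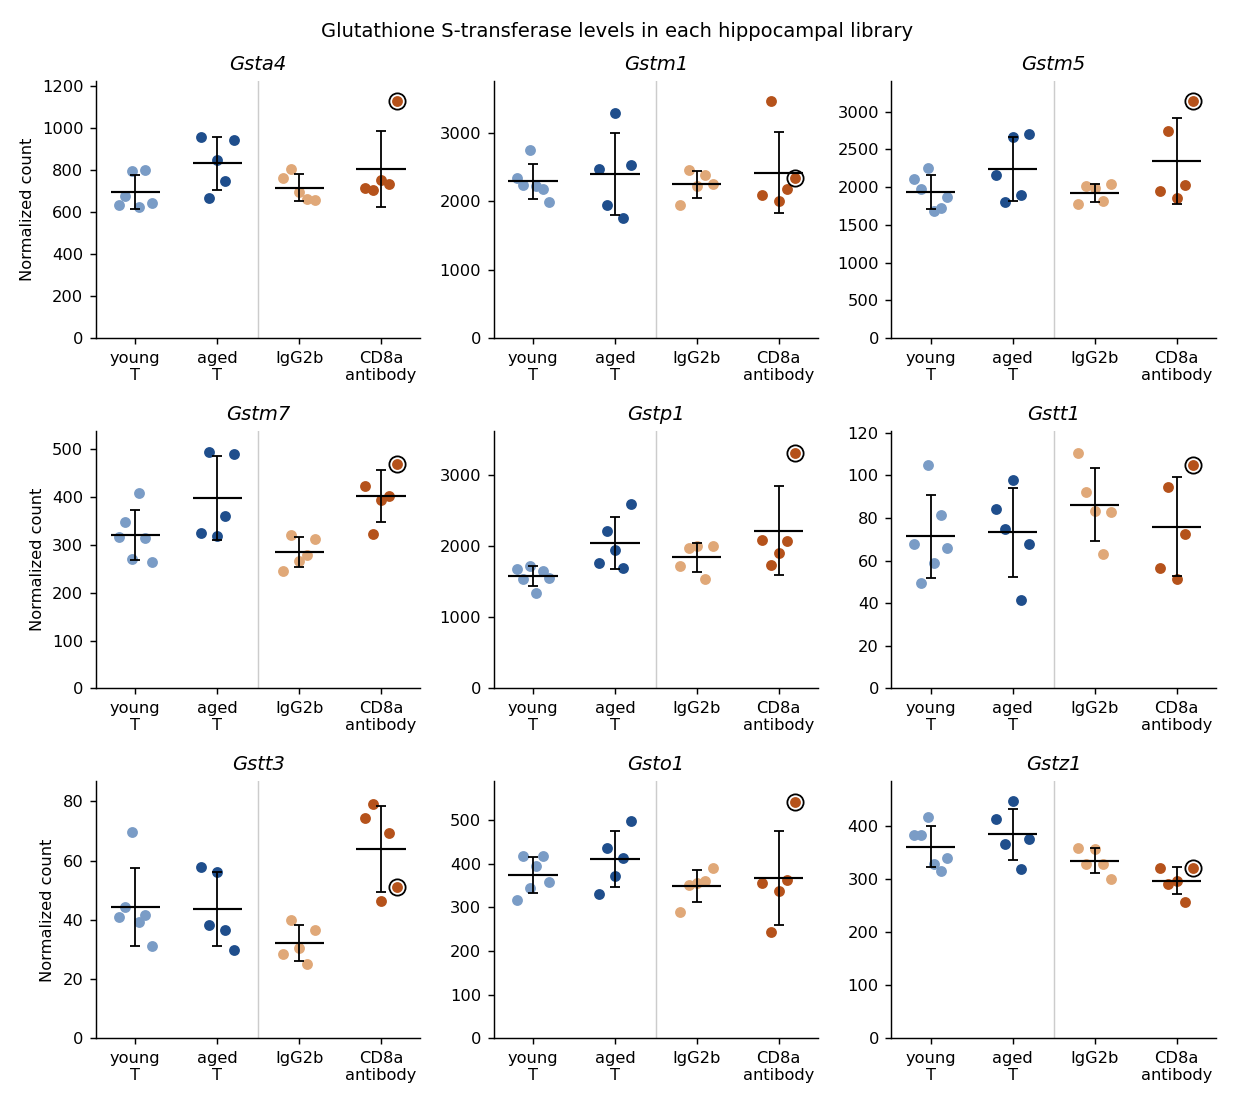
Normalized count of each gene in every library of the 4 groups (points), with the group mean and SD (black). CD8a antibody replicate 5 is circled. Gstt3 and Gstm7 antibody libraries all lie above IgG2b libraries, and replicate 5 is the highest antibody library for 7 of the 9 genes.

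Counted over the 9 genes, 8 were higher in aged T than in young T recipients, beside 49.0% of the 14162 genes tested, and their median difference was 0.12 against -0.00 over all genes. In the depletion experiment 7 were higher after antibody, beside 49.6% of 13939 genes, with a median of 0.15 against -0.00. Limma called 0 of the 9 in the transfer experiment, where it called 0% of all genes, and DESeq2 called 0 and likewise 0% of 18323 genes. At an unadjusted p under 0.05, limma counted 2 of the 9, and 608 higher and 561 lower among all genes. In the depletion experiment limma called 0 of 9 (0.00717% of all genes), with 2 at an unadjusted p under 0.05 beside 601 higher and 579 lower genes in all, and DESeq2 called 2 (0.656% of 14024 genes), Gstt3 and Gstm7. Those DESeq2 calls held in 5 and 3 of the 10 fits that left out 1 library. No gene had all aged T libraries above all young T libraries, which 0.459% of genes did, and Gstt3 and Gstm7 had all antibody libraries above all IgG2b libraries, which 0.782% did. Nothing is read from these counts, since the same differences led to the choice of the genes.

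The differences moved together with transcript length. All 9 transcripts (821 to 1880 bases) are shorter than the median of 3120 bases over tested genes. Across genes, shorter transcripts tended to be higher in the mean of the treated group. In the depletion experiment only CD8a antibody replicate 5 had a trend on length outside the IgG2b range, as given by library below. Spearman's rho of difference and length was -0.50 over 13647 genes in the transfer experiment and -0.29 over 13431 in the depletion experiment, where genes are not independent. With a smooth trend on length subtracted, the median difference of the 9 was 0.00 in the transfer experiment, with 5 higher, and 0.01 in the depletion experiment. Gstp1 then stood at 0.14 and Gstm7 at 0.18 between T cell groups, and Gsta4 and Gstm5 at 0.07 and 0.01. After antibody Gstt3 was at 0.90 and Gstm7 at 0.40, Gstm5 at 0.11, Gstt1 at -0.34 and Gstz1 at -0.25. Of the 7 genes higher after antibody, Gstt3 and Gstm7 kept the larger part of their difference and the other 5 did not.

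**Figure D3:**
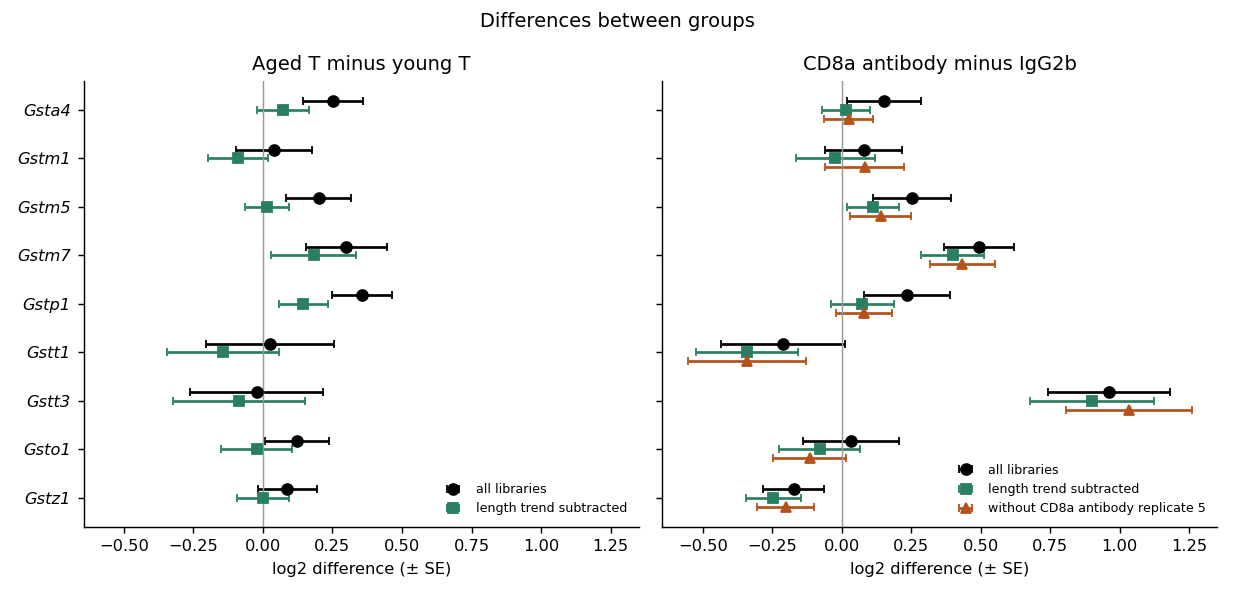
Log2 difference with SE for each gene, aged T minus young T (left) and CD8a antibody minus IgG2b (right). Black circles use all libraries, green squares have the length trend of each library subtracted and orange triangles leave out CD8a antibody replicate 5. Gstt3 stays between 0.90 and 1.03 on the right under all 3.

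The same trend showed library by library. Each library was given a length slope, its log2 deviation per doubling of transcript length, in which a negative value means relatively more reads on short transcripts. CD8a antibody replicate 5 had the lowest slope, -0.33, and the highest median of the 9 genes over the IgG2b mean, 0.66, with 8 of 9 above it. The other 4 antibody libraries had slopes of 0.02 to 0.06 and medians of -0.04 to 0.16. These slopes lay within those of the IgG2b libraries, -0.04 to 0.11, whose medians were -0.12 to 0.11. Young T libraries had slopes of -0.03 to 0.10 and medians of -0.14 to 0.21. Aged T replicates 5, 3 and 1 had slopes of -0.19, -0.10 and -0.04 and medians of 0.42, 0.31 and 0.17 over the young T mean, whereas replicates 2 and 4, at 0.01 and 0.04, had medians of 0.03 and -0.02. Without antibody replicate 5 the median of the 9 after depletion was 0.08, and Gstt3 and Gstm7 were at 1.03 and 0.43. Why slopes differ between libraries was not tested.

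**Figure D4:**
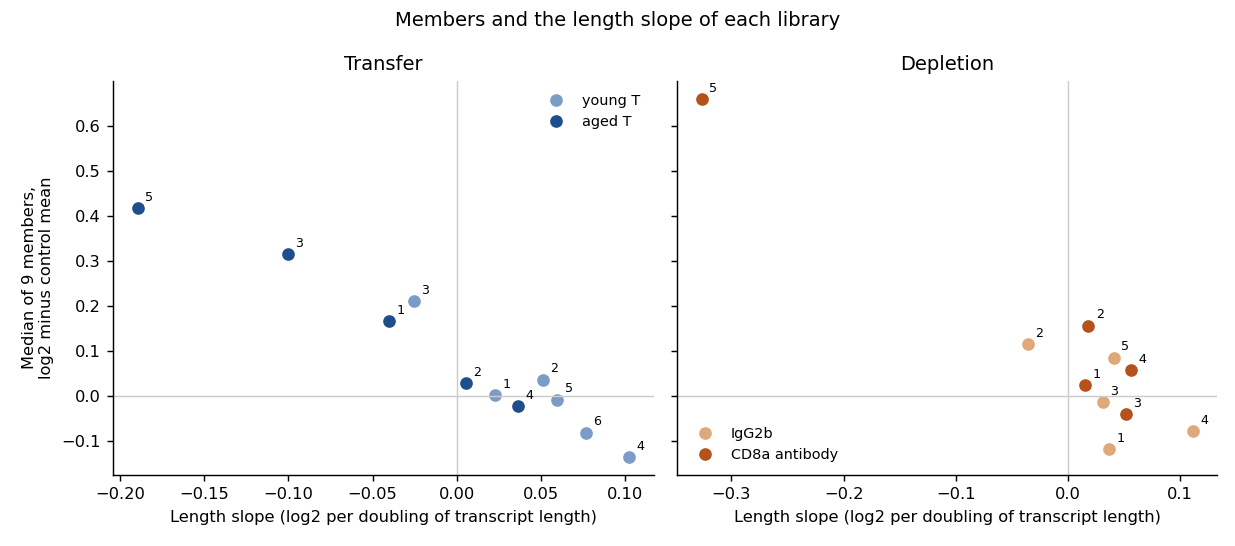
Median log2 deviation of the 9 genes from the control mean against the length slope of each library, transfer (left) and depletion (right), with replicate numbers. CD8a antibody replicate 5 lies at the upper left at 0.66, and aged T replicates 5 and 3 at 0.42 and 0.31.

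Cell type markers were read beside these values. All 11 of 11 oligodendrocyte markers were higher in aged T (median 0.36) and after antibody (0.41), and microglia markers were higher in 8 of 10 (0.14) and 10 of 10 (0.34). Astrocyte markers were higher in 6 of 14 (-0.04) and 10 of 14 (0.08), choroid plexus markers in 11 of 11 both times (0.32 and 0.51) and ependymal markers in 8 of 8 and 7 of 7 (0.61 both). Choroid plexus sums overlapped, at 5358 to 74547 in aged T against 6975 to 52327 in young T recipients. With the antibody they were 2460 to 45402, against 4220 to 38311 with IgG2b. Limma had 0 choroid plexus markers at an unadjusted p under 0.05 in either experiment. After transfer it had 4 oligodendrocyte, 3 ependymal and 1 microglia markers higher, and 3 fibroblast and 1 endothelial markers lower. After antibody it had 7 microglia, 6 oligodendrocyte, 3 ependymal and 2 neuron markers higher, with 1 neuron and 1 fibroblast marker lower. Astrocyte, endothelial and fibroblast markers were also higher for 1 each. Among all genes 608 of 14162 were higher at that level after transfer, and 601 of 13939 after antibody. Fibroblast markers were lower in 11 of 11 in aged T recipients (-0.75) and higher in 8 of 11 after antibody (0.36), endothelial markers were higher in 2 of 10 (-0.21) and 9 of 10 (0.21) and neuron markers in 6 of 13 (-0.05) and 9 of 13 (0.11). No marker of these lists was at 0 throughout a group. Without CD8a antibody replicate 5 the astrocyte and choroid plexus medians after antibody were 0.23 and 1.11. Of 10 blood and T cell genes 3 passed the filter, with 3 higher in aged T recipients (median 0.92) and 2 after antibody (1.17). The summed levels of the 10 genes overlapped, at 35.5 to 605 against 46.5 to 403 normalized counts after transfer and 58.1 to 388 against 44.0 to 903 after antibody. Summed oligodendrocyte markers were 55121 to 104552 normalized counts after antibody and 52156 to 67293 with IgG2b. Antibody replicates 1, 4 and 2, with the 3 highest sums, also had the 3 highest Gstt3 values. The same replicates had the highest microglia sums (8902, 8495 and 7826, against 7374 and 7270 in replicates 3 and 5). Microglia sums with IgG2b were 6123 to 7021, so for this list the antibody and IgG2b groups did not overlap. Between T cell groups they did, at 5406 to 8188 in aged T against 5261 to 7494 in young T recipients. By the median log2 deviation of oligodendrocyte markers from the IgG2b mean, antibody replicate 3 (0.27) lay above replicate 2 (0.21). In the transfer experiment aged T replicate 2 had the highest oligodendrocyte sum (100489) with Gstt3 at 38.3. The part of any cell type in the differences was not tested.

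The remaining glutathione transferases were looked at for comparison. Of 20 listed, 19 were in the tables, and 12 passed the filter in the transfer and 11 in the depletion experiment. In the former 9 of 12 were higher (median 0.09), and in the latter 10 of 11 (median 0.28), with limma and DESeq2 calling none. With the length trend subtracted the medians were -0.04 and 0.23. Gstk1, the mitochondrial kappa class enzyme, was at 130 ± 27.7 after antibody and 98.2 ± 14.3 with IgG2b (0.39, SE 0.17, and 0.24 with the length trend subtracted). Hpgds, the sigma class prostaglandin D synthase of microglia, was at 86.5 ± 24.3 and 66.5 ± 12.8 (0.35, SE 0.21). Mgst1, a membrane-bound transferase, was at 139.9 ± 35.6 against 107 ± 16.4 in the transfer experiment (0.35, SE 0.18, and 0.21 with the length trend subtracted).

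The wider glutathione pathway was divided by role. Enzymes of glutathione synthesis and breakdown showed no common direction, with 8 of 15 higher in aged T recipients (median 0.01) and 9 of 15 after antibody (0.03). Glutathione and thioredoxin redox enzymes were higher in 19 of 21 in aged T recipients (median 0.18, and 0.09 with the length trend subtracted, with 8 at an unadjusted p under 0.05) and in 15 of 21 after antibody (0.09, or 0.01 with the length trend subtracted and 0.01 without CD8a antibody replicate 5). Glrx5, a mitochondrial iron-sulfur cluster glutaredoxin, was at 715 ± 116 against 558 ± 56.8 in the transfer experiment (0.35, SE 0.11, and 0.36 with the length trend subtracted). Gpx3, the secreted glutathione peroxidase, was at 67.5 ± 18.3 after antibody against 97.1 ± 10.8 (-0.56, SE 0.20). Limma and DESeq2 called none of the genes of both lists in either experiment.

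Among NRF2 pathway genes 18 of 24 were higher in aged T recipients (median 0.04) and 15 of 24 after antibody (0.03). Export and mercapturate genes were higher in 2 of 12 (-0.09) and 7 of 12 (0.15), and other detoxifying enzymes in 17 of 20 (0.09) and 14 of 20 (0.07). With the length trend subtracted the export median in aged T recipients was -0.02, and those of the other detoxifying enzymes were 0.04 and 0.02. DESeq2 called 2 genes of these lists after antibody, beside 0.656% of 14024 genes in all, and limma none. The lists share genes, and Ephx1 is in both the NRF2 list and that of other detoxifying enzymes. Ephx1, the microsomal epoxide hydrolase, was at 450.5 ± 72.8 after antibody against 320.1 ± 28.9 with IgG2b (SD, n = 5 each). Its groups did not overlap, as was so in this direction for 0.782% of genes. The log2 difference was 0.48 (SE 0.13), with an adjusted p of 0.0452 by DESeq2. Aldh1a1, an aldehyde and retinal dehydrogenase, was at 707 ± 138 against 473 ± 42.1, a difference of 0.56 (SE 0.14) and an adjusted p of 0.0256 by DESeq2. These calls held in 2 and 3 of the 10 fits that left out 1 library, and limma called Aldh1a1 without CD8a antibody replicate 5.

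Genes were ranked by how alike their values varied over the 21 libraries, with group means removed. Of the 13863 other genes tested in both experiments, predicted and unnamed symbols and those starting with C and a digit were left out of the ranking. Most like Gstt3 among the rest were Gtpbp10, Orc4, Cnn3, Plcd4 and Fam227a, with Pearson r of 0.81, 0.80, 0.79, 0.77 and 0.75. For Gstm1 they were Scp2, Rpl5, Sat1, Prodh and Mt1, with r of 0.93, 0.92, 0.92, 0.90 and 0.90. These are descriptions over libraries that share depth and length trends. Single libraries held many of the highest values of their group: CD8a antibody replicate 5 was highest in its group for 7 genes, young T replicate 3 for 6 and IgG2b replicate 2 for 4.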

How the data were processed

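RNA from 21 hippocampi was sequenced as strand-specific, polyA-enriched, paired-end libraries, per the labels' protocols. The submitters' processing notes name STAR, RSEM, DESeq2 and mm10, while the annotation and counting were not given in the sources used here. Each library column of the 2 deposited tables holds, per the file headers and its values, a normalized signal, that is a read count divided by 1 size factor. The deposited tables also hold the authors' log2 fold changes, p-values and a test statistic (a score), signed control over treated, which are not printed. Members and gene lists were chosen with earlier results of these data known.

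Each table was fitted alone with limma 3.58.1 with a mean-variance trend in R 4.3.3, after adding 1 to the normalized counts and taking log2, over genes with a mean of at least 10, with Benjamini-Hochberg adjustment over all of them at 0.05. DESeq2 1.42.0 and edgeR 4.0.16 were run on whole reads recovered from the size-factor steps (relative tolerance 1e-06). Fold changes on this scale understate changes of low genes. Replicates are separately titled samples numbered in record order, so no number pairs them. The p-values set each group difference against the spread between these samples within groups. Alternatives were another pseudocount, no filter, TMM scaling, limma-voom, leaving out each library, and subtraction of a loess length trend (span 0.75), fitted over genes or per library. The last was chosen after seeing the data. Lengths are of GENCODE M21 transcripts, in which 23376 of 24411 symbols (95.8%) were found. The 9 genes were always named, with up to 3 genes per list by smallest p, the genes of the Gstt locus and the 5 genes most like Gstt3 and Gstm1. The limma fit was tested on simulated data. Another motif that was searched is not reported here.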

Additional observations from a re-analysis of the deposited data

Results flagged for a closer look

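Within groups of 5 or 6 libraries, 4 of the 36 sets of values held 1 library whose gap to its nearest neighbour took up an unusually large share of the group's range, a criterion that chance meets in about 1 of 20 groups. Gsta4 was 1131 normalized counts in CD8a antibody replicate 5, with the next library at 756. Gstp1 was 3314 in the same library, with the next at 2085. Gstm1 was 3459.7 in CD8a antibody replicate 2, with the next at 2344. Gstt3 was 69.6 in young T replicate 3, with the next at 44.2.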

How the results depend on the processing

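The number of genes higher in aged T recipients fell from 8 to 5 with the length trend subtracted. Subtracting it over genes or per library gives the same differences by construction, so these settings are not separate checks. Over all genes of the depletion experiment, limma called 1 gene, 0 with no filter on low values, and 0 to 25 without 1 library, the 25 being without CD8a antibody replicate 5. DESeq2 called 92, and 25 to 303 without 1 library. In the transfer experiment DESeq2 called 0, and 0 to 4 without 1 library. The median difference of the 9 genes went from 0.12 to 0.00 (transfer) and from 0.15 to 0.01 (depletion) with the length trend subtracted. Single differences changed sign in 15 of 180 values in the transfer experiment (Gstm1, Gsto1, Gstt1 and Gstt3) and in 7 of 171 in the depletion experiment (Gstm1 and Gsto1). Both length subtractions enter these counts separately, although their differences are the same. No paired analysis was possible because nothing in the labels ties a sample of one group to a sample of another, and no compared groups share a number in their titles. Gstt1 and Gstt3 rest on 30 to 128 reads per library, which limits their precision.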
